A study of Mus musculus with 18 samples.

Results

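The comparison set the 3 arrays of mouse dendritic cells exposed to lipopolysaccharide (LPS) for 6 h against the 3 arrays of unstimulated cells of the same series, paired by condition. The 6 arrays were chosen by their labelled time out of 18. The whole series also holds arrays after 2, 4, 12 and 24 h of LPS, 3 at each time. All cells were dendritic cells grown from bone marrow of C57BL/6 mice 6 to 8 weeks old, in medium with supernatant of B16 tumour cells transduced with GM-CSF, and were used when more than 90% carried CD11c. One condition was wild type cells given smooth LPS at 1 µg/ml. A second was wild type cells given the same LPS together with 2 mM of EGTA, a chelator of extracellular calcium. The third was cells of Cd14-/- C57BL/6 mice given smooth LPS, for which no concentration is stated. Each condition had 1 unstimulated array. The one paired with the EGTA series carries EGTA in its title, while its protocol names only plating and harvest. Unstimulated cells were harvested 24 h after plating. The interval between plating and LPS is not given in the sources used here. For the 6 h arrays LPS and time since plating therefore cannot be told apart. The nearest match in time is the change at 24 h, which is given beside that at 6 h for some genes only. No label says that the arrays came from separate cultures or animals. The 3 arrays of a time are 3 different conditions and no replicates. The p-values therefore rest on how far the conditions differ in their changes over time, estimated from all 18 arrays. Part of that spread may be technical.

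LPS, a component of the outer membrane of Gram-negative bacteria, is handed by the surface protein CD14 to the receptor complex of TLR4 and MD-2. From there the adaptor MyD88 leads to NF-kB and the early inflammatory genes, while the adaptor TRIF leads to IRF3, interferon beta and, through the interferon receptor and STAT proteins, to the interferon-stimulated genes. Dendritic cells so stimulated stop sampling their surroundings, raise costimulatory molecules and the receptor CCR7, and move towards T cells.

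Levels in the text are quantile-normalised log2(intensity + 16), on which the floor is 4, the median over genes and arrays 6.81 and the highest level of any gene 13.96. Values of 3 arrays always come in the order wild type, EGTA, CD14-deficient. Changes are LPS minus unstimulated on that scale with the standard error of the fit, from 3 arrays against 3, and folds are the same changes as ratios. Both understate the change of genes near the floor. A gene was called when its limma p, adjusted by the Benjamini-Hochberg method over 7056 genes, was under 0.05.

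One array, unstimulated EGTA, differed from the other 17 in its dim probe sets. The 1st percentile of its deposited intensities was 3.63 against at most 0.939 elsewhere, 3311 of its probe sets lay under an intensity of 16 against 4635 to 5570, and it correlated least with the rest (median 0.930). Without it 4042 genes were called at 6 h in place of 4233. Of 241 tested genes named by rule, 9 moved by over 0.5, at most by 0.733 (U90926), 4 lost their call (Mcpt8, Tnfsf8, Sos1 and H2-Aa) and 1 gained one (Zbtb46). Counts of gene lists without it are given in parentheses below. Cd14 followed the labels, at 12.65, 12.53 and 5.40 without LPS and 13.00, 12.71 and 4.28 at 6 h.

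The dendritic cell marker Itgax, which encodes CD11c, was at 12.37, 12.39 and 12.40 without LPS and 11.79, 11.80 and 11.98 at 6 h. Of 8 dendritic cell markers on the array 6 lay above the array median on all 3 unstimulated arrays. None of 7 T and NK cell markers lay above the median on any of the 6 arrays, and 5 of 6 B cell, 4 of 5 stromal and 3 of 4 melanoma markers lay above it on none. Granulocyte markers were present, 8 of 12 above the median on all 6 arrays. Their summed normalised intensity was 38083 to 40556 without LPS and 21494 to 26544 at 6 h. The sum of 10 macrophage markers went from between 29141 and 34420 to between 15140 and 26726, and that of the 8 dendritic cell markers from between 6430 and 7873 to between 4318 and 4858. Other sums were higher at 6 h. That of 4 plasmacytoid dendritic cell markers went from between 879.7 and 1248 to between 3449 and 5039, that of 6 B cell markers from between 936 and 993 to between 2418 and 3247, that of 8 mast cell and basophil markers from between 704 and 982 to between 1191 and 1999, and that of 5 erythroid markers from between 997 and 2272 to between 2988 and 3793. In these lists 2, 5, 3 and 3 markers lay above the median on none of the 6 arrays. The brightest marker weighs most in a sum, so a sum can follow a single gene. Mean levels went from 9.68 to 11.79 for Bst2 (plasmacytoid), also listed as interferon-stimulated, and from 9.82 to 11.46 for Blnk (B cell). They went from 5.39 to 9.93 for Hdc (mast cell) and from 10.63 to 11.63 for Car2 (erythroid). Itgax, the brightest dendritic cell marker, went from 12.39 to 11.86. S100a8 and S100a9, the brightest granulocyte markers, went from 13.68 to 13.05 and from 13.50 to 12.58. The T and NK cell sums were 102 to 121 and then 115 to 153, and the melanoma and stromal sums, at most 283, overlapped between the groups. In whole cultures, fewer cells of a type and less RNA per cell cannot be told apart.

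Promoters of a few changed genes, picked for their matches after the values were seen, are printed as examples of 4 short motifs, each with the bases from 250 before the start of the gene up to the start, read along the gene's own strand, from RefSeq on GRCm38.p6. The first pair belongs to the interferon-stimulated genes Ifit1 (chr19:34640639-34640888, plus strand) and Ifit3 (chr19:34583279-34583528, plus strand), whose products bind foreign RNA. Capitals mark matches to an interferon-stimulated response element (ISRE), searched as GAAANNGAAA on both strands.
Ifit1: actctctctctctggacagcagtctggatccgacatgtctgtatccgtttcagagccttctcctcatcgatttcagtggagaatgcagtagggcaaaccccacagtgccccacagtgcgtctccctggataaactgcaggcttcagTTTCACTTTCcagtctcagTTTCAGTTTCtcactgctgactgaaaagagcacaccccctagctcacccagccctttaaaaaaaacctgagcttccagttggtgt
Ifit3: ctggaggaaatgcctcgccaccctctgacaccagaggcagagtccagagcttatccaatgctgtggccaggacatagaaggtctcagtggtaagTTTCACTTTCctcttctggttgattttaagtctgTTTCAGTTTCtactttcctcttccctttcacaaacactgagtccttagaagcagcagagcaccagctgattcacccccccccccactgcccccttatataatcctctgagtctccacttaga
Both promoters hold 2 such matches, both on the strand opposite to the gene.

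The next set holds 3 genes of the inflammatory programme, with capitals at matches to an NF-kB site searched as GGGANTTTCC on both strands. They are the neutrophil chemokine Cxcl1 (chr5:90890995-90891244, plus strand), the NF-kB subunit Nfkb2 (chr19:46305680-46305929, plus strand) and the cytokine Il6 (chr5:30012864-30013113, plus strand).
Cxcl1: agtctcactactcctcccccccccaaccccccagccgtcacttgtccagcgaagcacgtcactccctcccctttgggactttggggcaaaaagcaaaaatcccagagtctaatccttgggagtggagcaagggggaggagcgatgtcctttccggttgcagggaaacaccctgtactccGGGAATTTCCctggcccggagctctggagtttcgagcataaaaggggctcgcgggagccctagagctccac
Nfkb2: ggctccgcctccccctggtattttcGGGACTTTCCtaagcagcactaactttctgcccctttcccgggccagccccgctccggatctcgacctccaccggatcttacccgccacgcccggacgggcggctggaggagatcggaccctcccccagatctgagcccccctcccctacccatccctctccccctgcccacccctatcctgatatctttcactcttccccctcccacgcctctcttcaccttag
Il6: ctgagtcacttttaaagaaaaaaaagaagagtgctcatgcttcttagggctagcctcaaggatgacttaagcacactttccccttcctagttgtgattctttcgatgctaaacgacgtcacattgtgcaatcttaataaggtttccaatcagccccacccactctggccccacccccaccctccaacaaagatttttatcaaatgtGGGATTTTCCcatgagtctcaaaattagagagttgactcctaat
The match begins 71, 225 and 44 bases before the start in this order.

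The last set comes from genes that fell. Mcm7 (chr5:138171884-138172133, minus strand) encodes a subunit of the replicative helicase and Pola1 (chrX:93632156-93632405, minus strand) the catalytic subunit of DNA polymerase alpha, and capitals mark matches to an E2F site, searched as TTTCCCGC or TTTGGCGC on both strands. The mitotic kinesin Kif22 (chr7:127042421-127042670, minus strand) and the activator of the anaphase-promoting complex Cdc20 (chr4:118437344-118437593, minus strand) have capitals at matches to the cell cycle genes homology region (CHR), searched as TTTGAA on both strands.
Mcm7: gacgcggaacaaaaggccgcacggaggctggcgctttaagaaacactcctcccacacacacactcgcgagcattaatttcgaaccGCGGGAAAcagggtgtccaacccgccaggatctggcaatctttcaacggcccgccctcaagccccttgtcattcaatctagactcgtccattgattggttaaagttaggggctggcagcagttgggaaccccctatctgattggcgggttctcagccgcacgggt
Pola1: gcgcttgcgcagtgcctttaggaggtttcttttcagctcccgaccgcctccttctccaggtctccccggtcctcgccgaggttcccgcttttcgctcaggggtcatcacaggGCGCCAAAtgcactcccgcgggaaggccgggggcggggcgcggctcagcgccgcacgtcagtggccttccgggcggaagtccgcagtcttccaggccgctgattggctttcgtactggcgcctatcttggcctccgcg
Kif22: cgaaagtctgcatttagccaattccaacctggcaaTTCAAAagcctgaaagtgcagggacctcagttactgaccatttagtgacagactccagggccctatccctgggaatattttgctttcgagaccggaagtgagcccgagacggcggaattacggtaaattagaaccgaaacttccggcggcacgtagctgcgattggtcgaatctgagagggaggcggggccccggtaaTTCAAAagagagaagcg
Cdc20: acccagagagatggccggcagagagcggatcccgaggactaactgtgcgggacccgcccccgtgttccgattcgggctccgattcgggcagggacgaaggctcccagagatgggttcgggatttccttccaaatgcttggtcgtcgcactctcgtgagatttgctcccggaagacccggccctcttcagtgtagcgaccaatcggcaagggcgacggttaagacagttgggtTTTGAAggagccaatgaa
In Cdc20 the match begins 18 bases before the start, and in Kif22 there are 2 matches.

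Over the whole table of 32851 promoters, from 250 bases before to 50 after the start, 3.44% held the ISRE, 0.411% the NF-kB site, 1.56% an E2F site and 17.9% the CHR. RefSeq promoters were matched for 5812 of the 7056 genes tested, with shares of 3.41%, 0.505%, 3.01% and 11.7%. Among 681 promoters of genes called higher by at least 2-fold, 61 held the ISRE (8.96%) and 9 the NF-kB site (1.32%), against 17 (2.62%) and 1 (0.154%) of 648 promoters of genes called lower by at least 2-fold. The CHR was in 103 of the latter (15.9%) and in 72 of the former (10.6%). An E2F site was in 20 promoters of the genes called lower (3.09%) and in 13 of those called higher (1.91%). The share of the lower genes was thus near the 3.01% over all genes tested.

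By gene list the shares were further apart. The ISRE was in 21 of 53 promoters of interferon-stimulated antiviral genes (39.6%) and in 1 of 40 of DNA replication genes (2.5%). The NF-kB site was in 3 of 27 promoters of secreted cytokines, 2 of 14 of chemokines and 3 of 20 of NF-kB genes themselves, and in 0 of the 53 promoters of the antiviral genes. The ISRE was also in 2 of the 27 cytokine promoters and 2 of the 14 chemokine promoters. An E2F site was in 9 of 40 promoters of DNA replication genes (22.5%) and in 2 of the 20 of NF-kB genes. The CHR was in 30 of 39 promoters of mitosis genes (76.9%) and in 12 of the 53 of antiviral genes (22.6%). With the 250 bases before the start alone, the E2F share of replication genes was 10.0%, the CHR share of mitosis genes 43.6% and the ISRE share of antiviral genes 30.2%. A match is a run of letters and not a measured binding site, and no binding was measured here.

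**Figure D1:**
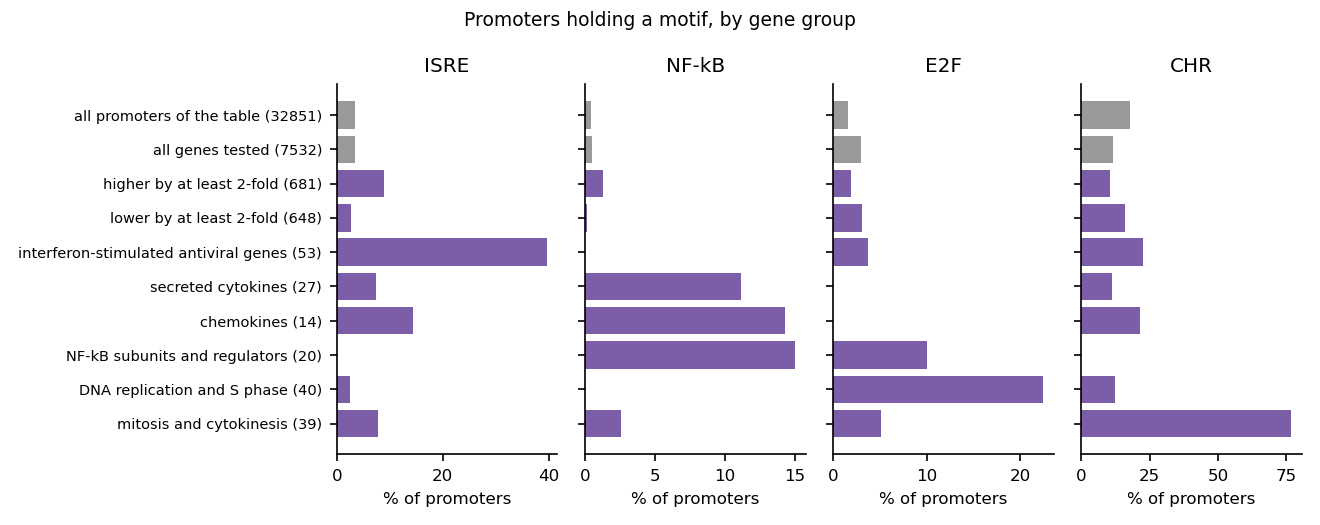
Share of promoters (x axes, percent) holding the ISRE, an NF-kB site, an E2F site or the CHR between 250 bases before and 50 after the gene start, by gene group (y axis, number of promoters in brackets). Grey bars are all promoters of the table and of all genes tested. The ISRE bar is longest for the antiviral genes (39.6%) and the CHR bar for the mitosis genes (76.9%).

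At 6 h 4233 of 7056 genes were called (60.0%), 1840 higher (26.1%) and 2393 lower (33.9%), so that a call alone says little about a single gene. By at least 2-fold 658 genes were higher (9.33%) and 600 lower (8.50%). All 3 LPS arrays lay above all 3 unstimulated arrays for 1791 genes (25.4%) and below them for 2260 (32.0%). The change had 1 sign in all 3 conditions for 5001 genes (70.9%). The split between directions moved with the scaling. Median centring gave 2243 higher and 1587 lower, and no further scaling 942 and 3410. The median change of all genes was -0.06, turned to 0.08 by median centring and stood at -0.36 without scaling. Medians of gene lists are to be read against it, but bright genes moved more. With median centring Fth1, at a mean of 13.90 without LPS, moved from 0.01 to 0.36, and Ccl9, at 13.44, from -0.02 to 0.37. Cpa3, at 7.23, moved only from 0.16 to 0.15. For lists of bright genes the median of all genes therefore does not take up the whole effect of the scaling.

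Ifit1 had the largest rise. It was at 5.61, 5.05 and 5.32 without LPS and at 13.16, 12.97 and 12.71 at 6 h, a change of 7.62 ± 0.35 or 196-fold (adjusted p = 1.54e-10). The chemokine Cxcl10, which attracts activated T cells, was at 6.31, 6.30 and 6.18 and then at 13.51, 13.44 and 12.85, a change of 7.00 ± 0.17 (adjusted p = 1.33e-13). Both genes went from below the median of all genes to near the top of the scale on every array. Other rises of this size belonged to U90926 (6.68 ± 0.39), the mitochondrial nucleotide kinase Cmpk2 (6.62 ± 0.29), Ifit3 (6.19 ± 0.37), Ifit2 (6.10 ± 0.36), the interferon-inducible GTPase Iigp1 (5.74 ± 0.28) and Gm9706 (5.67 ± 0.21). A second probe set of Gm9706 is shared with Isg15, so the signal under that name is uncertain.

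The largest fall was that of Ccr2, the receptor that brings monocytes out of the marrow. It was at 10.12, 10.01 and 10.91 without LPS and at 5.53, 6.27 and 6.76 at 6 h, a change of -4.16 ± 0.22 or 17.9-fold (adjusted p = 5.68e-10). The 2 groups were more than 3 log2 units apart. Other genes among the 15 largest falls were Fosb, a subunit of AP-1 (-4.15 ± 0.31), the zinc finger factor Klf4 (-3.49 ± 0.29), Pald1 (-3.48 ± 0.32), Hepacam2 (-3.42 ± 0.23), the cannabinoid receptor Cnr2 (-3.37 ± 0.30), Nrep (-3.36 ± 0.31), the adhesion molecule E-cadherin, Cdh1 (-3.27 ± 0.31), and Scel (-3.12 ± 0.25).

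**Figure D2:**
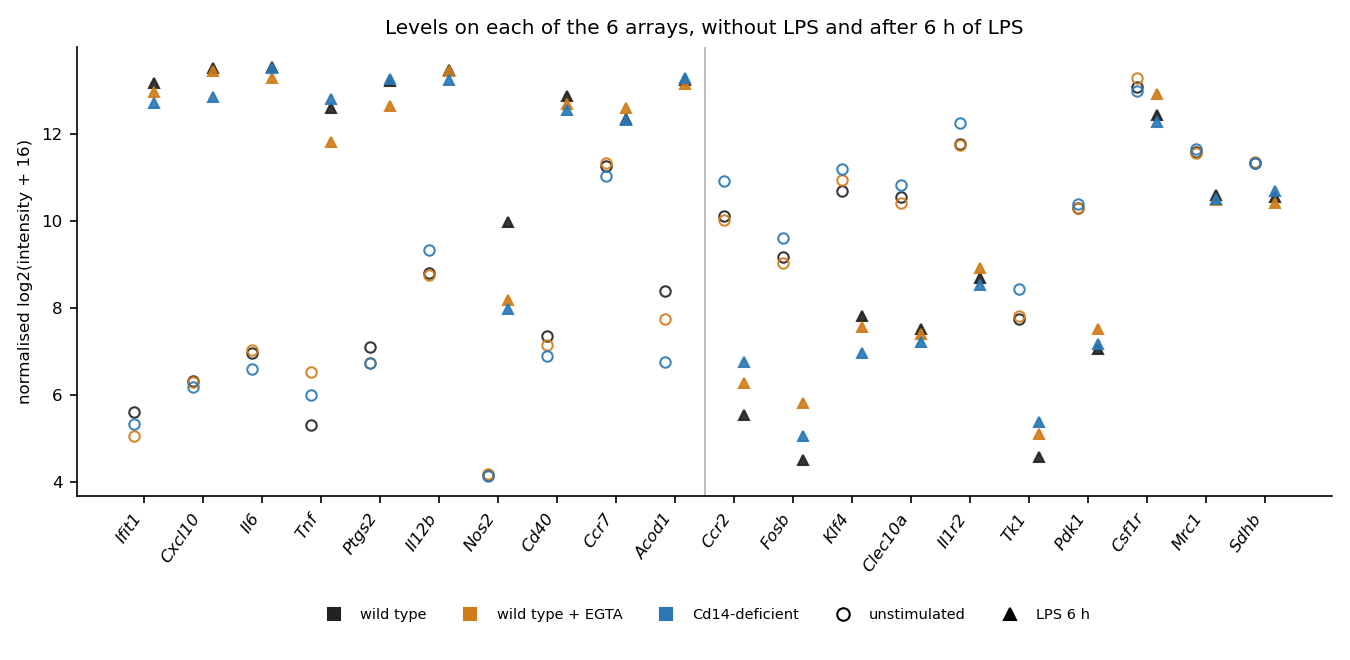
Levels of 10 genes that rose (left of the line) and 10 that fell (right) on each of the 6 arrays, as quantile-normalised log2(intensity + 16). Open circles are unstimulated arrays, triangles arrays after 6 h of LPS, and colours the 3 conditions. For Ifit1 the LPS arrays sit between 12.71 and 13.16 and the unstimulated ones between 5.05 and 5.61, whereas for Csf1r they sit between 12.26 and 12.91 against 12.98 to 13.28, a fall that was not called with median centring.

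Among LPS and Toll-like receptors and their adaptors, 11 of 17 tested members rose and 3 fell (12 and 3 without the unstimulated EGTA array), with a median of 0.93. The receptor itself, Tlr4, was at 10.59, 10.37 and 10.50 without LPS and at 9.62, 9.46 and 10.04 at 6 h, a change of -0.78 ± 0.14 (adjusted p = 1.60e-04). All 3 LPS arrays were below all unstimulated ones. Its partner MD-2, encoded by Ly96, went the other way, from 8.78, 8.86 and 8.64 to 10.16, 10.13 and 10.03 (1.34 ± 0.07, adjusted p = 7.27e-10). At 24 h the 2 changes were -0.15 (adjusted p = 0.39) and 0.98. The receptor for double-stranded RNA, Tlr3, rose by 3.38 ± 0.26 and Tlr1, a partner of TLR2, by 2.05 ± 0.18. The kinase Ikbke, which acts on IRF3, rose by 2.77 ± 0.22 and the adaptor Myd88 by 1.12 ± 0.10. Cd14 had a change of -0.20 ± 0.32 over all conditions, in which the CD14-deficient arrays near the floor take part, and was not called (adjusted p = 0.614). Without the CD14-deficient arrays it was 0.27 (adjusted p = 0.00487).

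Of 18 tested NF-kB subunits and regulators 16 rose and 0 fell (16 and 1 without the unstimulated EGTA array), with a median of 1.76. The largest change was that of Nfkbiz, an atypical IkB that helps transcribe secondary inflammatory genes. It was at 7.20, 7.35 and 7.27 without LPS and at 11.39, 11.87 and 11.81 at 6 h (4.42 ± 0.20, adjusted p = 1.01e-10). The deubiquitinase A20, encoded by Tnfaip3, which ends the signal, rose by 3.68 ± 0.17, the adaptor Traf1 by 2.82 ± 0.11, the kinase Map3k8 by 2.80 ± 0.13 and the inhibitor Nfkbib by 2.29 ± 0.09. Nfkbia, the classical IkB alpha, was already at 12.21, 12.30 and 12.28 without LPS and changed by 0.94 ± 0.06.

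Of 25 feedback inhibitors 14 rose and 5 fell (13 and 5 without the unstimulated EGTA array), with a median of 0.46. Usp18, which removes ISG15 and blocks the interferon receptor, was at 9.07, 9.12 and 7.43 and then at 13.25, 13.13 and 12.78 (4.51 ± 0.27, adjusted p = 1.76e-09). The ubiquitin ligase Peli1 rose by 2.15 ± 0.09, the checkpoint ligand PD-L1, Cd274, by 1.98 ± 0.08 and the cytokine signalling inhibitor Socs3 by 1.85 ± 0.10. In the same list the decoy receptor for IL-1, Il1r2, was among the largest falls, from 11.76, 11.73 and 12.24 to 8.68, 8.91 and 8.54 (-3.20 ± 0.21, adjusted p = 5.48e-09). The regulator of G protein signalling Rgs2 fell by 3.24 ± 0.14.

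Of 28 secreted cytokines and growth factors 22 rose, 20 of them by at least 2-fold, and 1 fell (22 and 1 without the unstimulated EGTA array), with a median of 2.42. Il6, which acts on T and B cells and on the liver, was at 6.96, 7.02 and 6.60 without LPS and at 13.52, 13.28 and 13.50 at 6 h (6.57 ± 0.16 or 95.3-fold, adjusted p = 1.37e-13). Tnf was at 5.31, 6.52 and 6.01 and then at 12.58, 11.82 and 12.79 (6.45 ± 0.34, adjusted p = 5.41e-10). The levels after LPS lay far above those before it on every array, and for Tnf the EGTA array was the highest before LPS and the lowest after it.

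The IL-1 genes were measured with little scatter. Il1a was at 7.69, 7.70 and 7.58 without LPS and at 13.37, 13.30 and 13.39 at 6 h (5.70 ± 0.07, adjusted p = 1.03e-17). Il1b started higher, at 10.12, 10.77 and 10.23, and reached 13.60, 13.57 and 13.63 (3.23 ± 0.11). Their receptor antagonist Il1rn was at 12.01, 11.92 and 11.75 before LPS and changed by 1.44 ± 0.06. In each of these the LPS arrays lay close together near the top of the scale. No gene exceeded 13.96, so there is little room there for spread or for a further rise.

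Cytokines that steer T cells rose as well. Il12b, the subunit shared by IL-12 and IL-23, was at 8.80, 8.74 and 9.32 and then at 13.46, 13.44 and 13.25 (4.43 ± 0.17, adjusted p = 2.38e-11). Its partner for IL-12, Il12a, rose by 3.24 ± 0.22, and its partner for IL-23, Il23a, by 3.62 ± 0.37. The anti-inflammatory cytokine Il10 was at 5.27, 4.05 and 5.08 and then at 8.81, 8.52 and 7.86 (3.60 ± 0.40, adjusted p = 1.66e-06). Il15, which sustains NK cells and memory T cells, rose by 3.65 ± 0.26 and the activin subunit Inhba by 3.00 ± 0.16.

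The vasoconstrictor Edn1 rose by 5.79 ± 0.26, from near the floor (5.15, 4.13 and 4.73) to 11.11, 10.19 and 10.06. The colony-stimulating factors Csf3 (2.79 ± 0.43) and Csf2 (1.52 ± 0.31) stayed at modest levels, at most 8.47 and 7.58. Ifnb1, which encodes interferon beta, was at 5.44, 5.98 and 5.55 without LPS and at 6.97, 6.04 and 5.58 at 6 h. The groups overlap, and the change of 0.54 ± 0.37 was not called (adjusted p = 0.226). Il2 was near the floor on all 6 arrays (4.15 to 4.71, adjusted p = 0.719). Both stood lower at 6 h than at 2 h, by 3.27 ± 0.37 and 3.76 ± 0.42. The 1 cytokine that fell was the angiogenic factor Vegfa (-2.67, named after its values were seen).

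Of 21 chemokines 16 rose and 0 fell (16 and 0 without the unstimulated EGTA array), with a median of 1.67. After Cxcl10 the largest changes were those of the neutrophil attractant Cxcl1 (5.76 ± 0.43), of Cxcl9 (4.82, named after its values were seen), which shares the receptor of CXCL10, and of Cxcl2 (4.35 ± 0.15), another neutrophil attractant. Cxcl2 was at 9.60, 8.92 and 8.99 without LPS and at 13.54, 13.22 and 13.79 at 6 h, with no overlap. The inflammatory CC chemokines Ccl3 and Ccl4 rose by 3.38 ± 0.10 and 2.78 ± 0.13. Ccl5 was bright before LPS (12.31, 12.40 and 12.05) and still rose, by 1.18 ± 0.07. Cxcl16, a membrane-bound chemokine, rose by 1.47 ± 0.08.

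Interferon-stimulated antiviral genes were the list with the largest median, 3.19, with 50 of 53 tested members higher, 47 of them by at least 2-fold, and 2 lower (50 and 2 without the unstimulated EGTA array). The sensor of viral RNA MDA5, encoded by Ifih1, was at 8.50, 8.49 and 8.14 without LPS and at 12.88, 12.84 and 12.17 at 6 h (4.26 ± 0.13, adjusted p = 1.64e-12). The ADP-ribosyltransferase Parp14 was at 8.28, 8.50 and 8.01 and then at 12.48, 12.55 and 12.13 (4.12 ± 0.16). In both the CD14-deficient array was the lowest after LPS and still far above all unstimulated arrays. The DNA sensor family member Ifi204 rose by 3.74 ± 0.17 and tetherin, Bst2, which holds virions at the cell surface, by 2.11 ± 0.09. The list's 2 members that fell, the ubiquitin ligase Trim25 (-0.75) and Ifitm1 (-0.50), were named after their values were seen. With median centring the list gave 50 higher and 0 lower.

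The signalling genes upstream rose less. Of 22 IRF and STAT signalling genes 16 rose and 1 fell (16 and 1 without the unstimulated EGTA array), with a median of 0.75. Irf7, the factor that amplifies interferon production, was at 7.66, 7.79 and 6.73 and then at 12.00, 11.98 and 11.25 (4.35 ± 0.23, adjusted p = 5.45e-10). Stat2 rose by 2.72 ± 0.17, Stat5a, which serves GM-CSF, by 2.62 ± 0.09, Irf1 by 1.48 ± 0.19 and the dendritic cell factor Irf8 by 1.01 ± 0.08. The interferon gamma receptor chain Ifngr1 fell, from 10.09, 9.69 and 9.99 to 8.39, 8.17 and 8.29 (-1.64 ± 0.11, adjusted p = 5.85e-09).

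Of 29 genes of costimulation and maturation 22 rose and 2 fell (22 and 2 without the unstimulated EGTA array), with a median of 1.11. Cd40, through which T cells license dendritic cells, was at 7.35, 7.14 and 6.90 without LPS and at 12.87, 12.68 and 12.55 at 6 h (5.57 ± 0.08 or 47.6-fold, adjusted p = 4.16e-17). The groups lay more than 5 log2 units apart. Cd70, the ligand of CD27 on T cells, rose by 3.84 ± 0.21, Marcksl1 by 2.54 ± 0.11, Slamf7 by 2.34 ± 0.12 and the adhesion ligand Icam1 by 2.09 ± 0.11. The classical B7 molecules changed less, Cd86 from 10.60, 10.48 and 10.93 to 12.22, 12.19 and 12.02 (1.47 ± 0.12) and Cd80 by 0.85 ± 0.11. Both were further up at 24 h (1.66 and 1.15).

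Of 14 receptors for chemoattractants and growth factors 4 rose and 8 fell (4 and 7 without the unstimulated EGTA array), with a median of -0.47, and with median centring 5 rose and 5 fell. Ccr7, the receptor for lymph node chemokines, was at 11.27, 11.34 and 11.02 before LPS and at 12.34, 12.59 and 12.32 at 6 h (1.21 ± 0.09, adjusted p = 2.86e-08). All LPS arrays lay above all unstimulated ones, as they did for the formyl peptide receptor Fpr2 (3.72 ± 0.22) and the atypical receptor Ccrl2 (2.32 ± 0.19). Cxcr4, which retains cells in the marrow, fell from 10.59, 10.54 and 10.64 to 7.30, 9.14 and 8.42 (-2.30 ± 0.24), least with EGTA. The growth factor receptor Csf1r fell by 0.58 ± 0.08, but with median centring its change was -0.23 and not called (adjusted p = 0.0615). The changes of Ccr7, Cxcr4 and Csf1r at 24 h were 1.64, -0.72 and -0.16, the last not called (adjusted p = 0.122).

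Genes for uptake of antigen were more often called lower than higher, but the balance depended on the scaling. Of 27 uptake receptors 16 fell and 5 rose (16 and 4 without the unstimulated EGTA array), with a median of -0.49, and with median centring 10 fell and 9 rose. The galactose lectins Clec10a and Mgl2 were at 10.54, 10.40 and 10.81 and at 11.43, 11.29 and 11.47 without LPS. At 6 h they were at 7.51, 7.39 and 7.21 (-3.22 ± 0.21, adjusted p = 5.85e-09) and at 9.50, 9.02 and 8.99 (-2.22 ± 0.15, adjusted p = 1.10e-08). None of their LPS arrays overlapped the unstimulated ones. The mannose receptor Mrc1 fell by 1.07 ± 0.13 at 6 h and had a change of -3.73 at 24 h. The neonatal Fc receptor Fcgrt fell by 1.99 ± 0.14 and the lipoprotein receptor Scarb1 by 1.41 ± 0.11. Against them Mincle, Clec4e, a sensor of mycobacterial glycolipid, went from 9.29, 9.15 and 9.44 to 13.36, 13.19 and 13.50 (4.05 ± 0.05, adjusted p = 4.16e-17), and the scavenger receptor Marco rose by 3.44 ± 0.28. The falling sums of macrophage, granulocyte and dendritic cell markers given above moved in the same direction as these falls, and their part in them was not tested.

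The 2 branches of antigen presentation parted as reported, but the class II counts depended on the scaling. Of 14 MHC class I genes 11 rose and 1 fell (11 and 1 without the unstimulated EGTA array), with a median of 0.73. The peptide transporter subunit Tap1 was at 9.06, 8.96 and 8.73 and then at 11.53, 11.59 and 11.10 (2.49 ± 0.12, adjusted p = 2.35e-10), and Tap2 rose by 1.47 ± 0.11. The peptide editor Tapbpl rose by 2.32 ± 0.14, tapasin, Tapbp, by 1.06 ± 0.07 and the immunoproteasome subunit Psmb10 by 1.48 ± 0.08. Of 10 MHC class II genes 7 fell and 1 rose (6 and 1 without the unstimulated EGTA array), and with median centring 4 fell and 4 rose. The list's median was -0.43, and with median centring it was -0.07.

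Among the class II genes those of H2-DM and H2-O fell most. H2-DMa was at 11.73, 11.79 and 12.08 and then at 10.45, 10.48 and 10.52 (-1.38 ± 0.12, adjusted p = 1.89e-07), and H2-DMb2 and H2-Oa fell by 1.14 ± 0.12 and 1.00 ± 0.17. The thiol reductase Ifi30 fell by 0.81 ± 0.10. The class II alpha chain H2-Aa changed by -0.14 ± 0.05 (adjusted p = 0.0306), which turned to 0.23 with median centring, so its direction depends on the scaling. The master regulator Ciita, in contrast, rose by 1.16 ± 0.16 from 7.35, 7.12 and 8.08 to 8.57, 8.60 and 8.88. At 24 h Ciita was at 0.18 above the unstimulated arrays (adjusted p = 0.36).

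The dendritic cell markers fell in 4 of 6 tested cases and rose in 0 (4 and 1 without the unstimulated EGTA array, 3 and 1 with median centring). The call of Itgax (-0.53) ended with median centring (-0.18, adjusted p = 0.333). Cd209a, the DC-SIGN homologue, was at 7.62, 7.83 and 10.24 without LPS and at 5.66, 5.70 and 6.10 at 6 h (-2.74 ± 0.43), highest in unstimulated CD14-deficient cells. The integrin Itgae fell by 2.63 ± 0.25 and Kmo by 1.49 ± 0.21, while Zbtb46 changed by 0.40 ± 0.17, which was not called (adjusted p = 0.0557). Kmo was not lower at 24 h (0.19, adjusted p = 0.475), while Itgae was (-3.40). Cd209a, Itgae and Kmo lay above the array median on all 3 unstimulated arrays and on 0 of the LPS 6 h arrays. Testing required 2 arrays above the median, so their unstimulated levels sufficed to bring them in. With 9 arrays required, the list median minus that of all genes went from -0.95 to 0.08. The fall of this list therefore depends on the filter. Macrophage markers fell in 5 of 9 cases and rose in 1 (Marco), while with median centring 2 fell and 4 rose. The falls included the complement genes C1qa at -1.65 ± 0.40 and C1qc at -1.34 ± 0.37, and Apoe at -0.48 ± 0.09, which was -0.20 and not called with median centring (adjusted p = 0.255). The C1q genes fell furthest in CD14-deficient cells, where C1qa went from 12.05 to 9.49. Granulocyte markers fell in 8 of 11 cases and rose in 1 (6 and 1 without the unstimulated EGTA array, 5 and 1 with median centring), with the granule genes Ltf at -1.99 ± 0.18, Ngp at -1.28 ± 0.20, Camp at -1.17 ± 0.22, Prtn3 at -0.99 ± 0.23 and the collagenase Mmp8 at -0.44 ± 0.10. With median centring Mmp8 was at -0.11 and not called (adjusted p = 0.470). S100a9 changed by -0.91 ± 0.27, and by -0.51 with median centring, then not called (adjusted p = 0.106). S100a8, the brightest of the list, changed by -0.63 ± 0.27 and was not called (adjusted p = 0.0522).

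Of 5 tested mast cell and basophil markers the histidine decarboxylase gene Hdc stood out, going from 5.77, 4.90 and 5.50 to 10.21, 10.39 and 9.18 (4.54 ± 0.25, adjusted p = 1.05e-09). The defining genes of that list did not move with it. Kit fell by 0.45 ± 0.12 and Mcpt8 by 0.50 ± 0.17, a call that ended without either EGTA array or the wild type LPS array (-0.27 to -0.48), and Cpa3 (0.16 ± 0.13) and Gata2 (0.02 ± 0.16) were not called. The B cell adaptor Blnk (1.64 ± 0.13) and the erythroid carbonic anhydrase Car2 (1.00 ± 0.24) were the single tested markers of their lists and rose. Of the plasmacytoid markers Tcf4 (1.92 ± 0.15) and Bst2 were tested, and both rose. The stromal gene Dcn was not called (adjusted p = 0.183).

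Early response transcription factors were mostly below their unstimulated level at 6 h, with 20 of 34 lower and 8 higher (19 and 8 without the unstimulated EGTA array) and a median of -0.52. Fos was at 10.40, 9.72 and 10.15 without LPS and at 7.42, 7.37 and 7.03 at 6 h (-2.82 ± 0.15, adjusted p = 5.03e-10). Fosb went from 9.17, 9.04 and 9.60 to 4.50, 5.80 and 5.05, and Klf4 from 10.68, 10.93 and 11.19 to 7.80, 7.55 and 6.96. All 3 genes lay above the median of all genes before LPS and did not overlap between the groups. Egr1 fell by 1.45 ± 0.20, Nr4a1 by 1.33 ± 0.30 and Jun by 0.45 ± 0.14. The call of Jun ended with median centring (-0.27, adjusted p = 0.208) and without the wild type LPS (-0.37) or the CD14-deficient unstimulated array (-0.29). Batf2 (2.78 ± 0.16) and Batf (1.66 ± 0.14), partners of Jun proteins, rose, and Atf3, a repressor of inflammatory genes, rose by 0.61 ± 0.21 (adjusted p = 0.0222). The call of Atf3 ended without scaling (0.41, adjusted p = 0.134) and without the wild type unstimulated (0.21), the wild type LPS (0.55) or the CD14-deficient LPS array (0.60).

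Of 19 transcription factors of myeloid lineages 9 fell and 5 rose (9 and 5 without the unstimulated EGTA array, 8 and 6 with median centring), with a median of -0.30. The list median minus that of all genes was -0.24, and 0.25 when testing required 9 arrays above the median. Its direction thus depends on the filter. The myeloid factor Cebpa was at 9.72, 9.40 and 10.07 and then at 7.25, 7.02 and 7.56 (-2.45 ± 0.19, adjusted p = 3.01e-08). The lipid sensor Pparg fell by 2.58 ± 0.30, the inhibitor of E proteins Id3 by 2.87 ± 0.29 and the Wnt effector Tcf7l2 by 2.01 ± 0.20, while the E protein Tcf4 rose.

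Enzymes and transporters that activated myeloid cells are known for formed a list in which 17 of 25 rose and 6 fell (16 and 6 without the unstimulated EGTA array), with a median of 0.88. Prostaglandin synthase Ptgs2 was at 7.10, 6.73 and 6.73 without LPS and at 13.22, 12.63 and 13.25 at 6 h (6.18 ± 0.18 or 72.4-fold, adjusted p = 1.35e-12). The itaconate-making enzyme Acod1 was at 8.38, 7.73 and 6.75 and then at 13.24, 13.15 and 13.28 (5.60 ± 0.23). The levels of Acod1 lay closer together at 6 h than before LPS, when it was lowest in CD14-deficient cells, and those of Ptgs2 lay further apart. Cholesterol 25-hydroxylase, Ch25h, rose by 5.16 ± 0.18 and mitochondrial superoxide dismutase, Sod2, by 2.41 ± 0.08.

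Nos2, the inducible nitric oxide synthase, rose from the floor (4.17, 4.17 and 4.14) to 9.98, 8.18 and 7.98 (4.55 ± 0.56, adjusted p = 4.81e-06). Wild type cells had the highest level. The arginine transporter Slc7a2 rose by 2.70 ± 0.27, the cystine transporter Slc7a11 by 2.90 ± 0.14 and the mitochondrial arginase Arg2 by 1.08 ± 0.14. The cytosolic arginase Arg1 fell by 2.98, an exception named after its values were seen.

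Genes listed under the tricarboxylic acid cycle were mostly called lower. The list also holds the kinase Pdk1 and the cytosolic Idh1, which are not enzymes of the cycle itself. Of 24 tested 18 fell and 2 rose (18 and 2 without the unstimulated EGTA array), with a median of -0.61, and with median centring 12 fell and 2 rose. The 2 that rose were Cs, citrate synthase (0.26), and Dld (0.49), both named after their values were seen. The largest fall was that of Pdk1, a kinase that shuts off pyruvate dehydrogenase. It was at 10.29, 10.29 and 10.39 without LPS and at 7.06, 7.51 and 7.17 at 6 h (-3.08 ± 0.19 or 8.46-fold, adjusted p = 3.42e-09). The cytosolic isocitrate dehydrogenase Idh1 went from 12.16, 12.06 and 11.56 to 8.94, 9.93 and 9.91 (-2.34 ± 0.24), lowest in wild type cells. Fumarase, Fh1, fell by 1.33 ± 0.11, the mitochondrial isocitrate dehydrogenase subunits Idh3g and Idh3b by 1.14 ± 0.10 and 0.86 ± 0.08, and the succinate dehydrogenase subunit Sdhb by 0.78 ± 0.09. At 24 h the changes of Idh3b (-0.11, adjusted p = 0.24) and Sdhb (-0.12, adjusted p = 0.24) were not called.

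Of 66 subunits of oxidative phosphorylation 61 were called lower and 1 higher (58 and 1 without the unstimulated EGTA array), with small changes and a median of -0.41. With median centring 21 were lower and 3 higher and the list median stood 0.19 below that of all genes, against 0.35 below it as reported. The ATP synthase subunit Atp5c1 was at 12.42, 12.34 and 12.36 and then at 11.60, 11.57 and 11.62 (-0.78 ± 0.06, adjusted p = 4.51e-08), and the complex I subunits Ndufa8, Ndufb10 and Ndufb11 fell by 1.06 ± 0.09, 0.96 ± 0.09 and 0.73 ± 0.06. These 4 remained lower and called with median centring (-0.41 to -0.78). The exception Ndufb1 rose by 0.93 ± 0.09.

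Of 24 genes of glycolysis and the response to low oxygen 15 fell and 3 rose (15 and 3 without the unstimulated EGTA array), with a median of -0.74. Triosephosphate isomerase, Tpi1, was at 12.57, 12.58 and 12.52 without LPS and at 10.62, 10.46 and 10.73 at 6 h (-1.96 ± 0.14, adjusted p = 1.06e-08). Bnip3, which drives removal of mitochondria, went from 10.92, 10.79 and 10.83 to 8.24, 8.22 and 8.09 (-2.67 ± 0.24), and the oxygen sensor Egln3 from 8.85, 9.01 and 8.87 to 6.22, 6.44 and 6.95 (-2.37 ± 0.36). The groups were wide apart in all 3. Aldoc and Pgam1 fell by 0.98 ± 0.08 and 0.69 ± 0.07, while hexokinase 2, Hk2, rose by 1.00 ± 0.10 and Pfkfb3, which makes an activator of glycolysis, by 1.64 (named after its values were seen). At 24 h Tpi1 was 0.27 below the unstimulated level (adjusted p = 0.11) and Egln3 0.79 below it (adjusted p = 0.079), neither called.

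Lipid genes were mixed. Of 24 genes of sterol and fatty acid synthesis 10 fell and 4 rose (10 and 3 without the unstimulated EGTA array, 8 and 5 with median centring), and the list median of -0.12 stood 0.06 below that of all genes and 0.02 above it with median centring. The desaturases Scd2 and Scd1 fell by 2.60 ± 0.19 and 1.43 ± 0.11, and the sterol enzymes Dhcr7 and Ebp by 1.45 ± 0.21 and 0.88 ± 0.08. The isoprenoid enzyme Idi1 rose by 1.50 ± 0.22 and was 0.45 below the unstimulated level at 24 h (adjusted p = 0.10, not called). Of 18 genes of cholesterol efflux and lipid handling 10 fell and 1 rose (9 and 1 without the unstimulated EGTA array), with a median of -0.46 and with 5 lower and 4 higher under median centring. They included the transporters Abca1 (-1.25 ± 0.19) and Abcg1 (-0.85 ± 0.13), the fatty acid carrier Fabp4 (-1.77 ± 0.30), and Cyp27a1 (-1.10 ± 0.18), and the dehydrogenase Acadm, which fell by 1.00 ± 0.09. Abca1 had a change of -0.22 at 24 h (adjusted p = 0.365, not called) and Abcg1 had -0.57.

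Genes of DNA replication and of mitosis mostly fell. Of 38 genes of DNA replication and S phase 27 fell and 2 rose (26 and 2 without the unstimulated EGTA array), with a median of -0.99. Thymidine kinase, Tk1, was at 7.75, 7.81 and 8.43 without LPS and at 4.57, 5.09 and 5.38 at 6 h (-2.98 ± 0.27, adjusted p = 1.81e-07). The ribonucleotide reductase subunits Rrm2 and Rrm1 fell by 2.20 ± 0.14 and 1.37 ± 0.11, the single-strand binding protein Rpa1 by 1.49 ± 0.10 and the clamp loader subunit Rfc4 by 1.21 ± 0.12. Mcm7 and Pola1, whose promoters are printed above, fell by 1.95 and 1.56. The thymidylate synthase Tyms rose by 1.25, and with Pola2 (0.46) it makes up the rises of the list, both named after their values were seen.

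Of 44 mitosis genes 37 fell, 32 of them by at least 2-fold, and 1 rose (37 and 1 without the unstimulated EGTA array), with a median of -1.32. The centromeric histone Cenpa was at 10.36, 10.15 and 10.79 and then at 7.75, 7.88 and 8.77 (-2.30 ± 0.15, adjusted p = 4.66e-09). Survivin, Birc5, was at 9.11, 9.38 and 10.25 and then at 6.77, 7.22 and 8.15 (-2.20 ± 0.17). CD14-deficient cells were the highest in both states, and each condition fell. Pbk fell by 1.87 ± 0.15, the cyclin Ccnb2 by 1.61 ± 0.13, the microtubule regulator Stmn1 by 1.59 ± 0.09 and the proliferation marker Mki67 by 0.81 ± 0.25. The call of Mki67 ended with median centring (-0.60, adjusted p = 0.0507) and without the wild type LPS (-0.60) or the CD14-deficient unstimulated array (-0.54). Kif22 and Cdc20 fell by 2.14 and 1.95. The securin gene Pttg1 rose by 1.62, the exception of the list, named after its values were seen. At 24 h the list's median was -2.07.

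Regulators of entry into the cycle were split, with 9 of 18 lower and 5 higher (8 and 5 without the unstimulated EGTA array, 8 and 7 with median centring). Cyclin D2, Ccnd2, rose from 11.44, 11.36 and 10.81 to 13.23, 13.25 and 13.19 (2.02 ± 0.11, adjusted p = 7.27e-10), and the stress gene Gadd45b rose by 2.17 ± 0.09. Cdk4, the kinase partner of cyclin D2, fell by 1.38 ± 0.12. The kinase inhibitor Cdkn2c fell by 1.71 ± 0.16 and the antiproliferative gene Btg2 by 1.68 ± 0.11. The sums of granulocyte marker genes fell alongside the cell cycle genes, and their part in these falls was not tested.

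Of 27 genes of cell survival and death 14 rose and 5 fell (14 and 5 without the unstimulated EGTA array), with a median of 0.34, and without scaling 9 rose and 8 fell. The caspase-8 inhibitor Cflar was at 8.52, 8.46 and 8.26 and then at 11.71, 11.77 and 11.47 (3.23 ± 0.09, adjusted p = 1.16e-12). The death receptor Fas rose by 3.16 ± 0.17, the inflammatory caspases Casp4 and Casp1 by 2.91 ± 0.13 and 2.10 ± 0.10, and the inhibitor of apoptosis Birc3 by 2.04 ± 0.10. Proteases and their inhibitors rose in 11 of 19 cases and fell in 5 (11 and 5 without the unstimulated EGTA array), among the rises the membrane protease Mmp14 (2.90 ± 0.11), the plasminogen activator Plat (3.20 ± 0.17) and the inhibitors Serpinb2 (3.38 ± 0.14), Cst7 (3.09 ± 0.22) and Slpi (1.45 ± 0.13).

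Of 34 proteasome subunits 14 rose and 4 fell (13 and 3 without the unstimulated EGTA array), with a median of 0.16 and 23 higher and 0 lower under median centring. Psmd10 (1.30 ± 0.08), Psma5 (0.98 ± 0.09), Psmb6 (0.62 ± 0.07), Psma6 (0.53 ± 0.05) and Psma4 (0.52 ± 0.06) led. Of 46 cytosolic ribosomal proteins 32 were called lower and 3 higher, but with median centring 2 were lower and 10 higher, so the direction of this family depends on the scaling. Rpl13a, for example, was at 13.49, 13.54 and 13.62 and then at 13.08, 13.31 and 13.27, a change of -0.33 ± 0.04 that became 0.04 with median centring.

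Of 74 mitochondrial ribosomal proteins 31 fell and 6 rose (26 and 5 without the unstimulated EGTA array, 21 and 9 with median centring), with a median of -0.19. Mrpl42 fell by 1.58 ± 0.09, Mrpl18 by 0.91 ± 0.08, Mrps26 by 0.80 ± 0.10 and Mrps24 by 0.72 ± 0.09, while Mrps6 rose by 1.05 ± 0.11. Among genes of the unfolded protein response 9 of 25 fell and 4 rose (10 and 4 without the unstimulated EGTA array, 4 and 6 with median centring), with the sensor Atf6 at -1.09 ± 0.12 and Xbp1 at -0.64 ± 0.11 against Ppp1r15a at 0.97 ± 0.14 and the chaperone Hspa5 at 0.48 ± 0.08. The relative median of this list changed sign with median centring, and Xbp1 was then at -0.26 and not called (adjusted p = 0.149). With 33.9% of all genes called lower, the 9 of 25 are near the share over all genes.

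Of 22 antioxidant, iron and metal genes 8 rose and 7 fell (6 and 6 without the unstimulated EGTA array, 10 and 4 with median centring), with the iron importer Slc11a2 at 2.46 ± 0.08 and ceruloplasmin, Cp, at 2.37 ± 0.22 against the transferrin receptor Tfrc at -1.01 ± 0.12 and catalase, Cat, at -0.67 ± 0.12. Nqo1 rose by 0.92 ± 0.14. Of 33 lysosomal genes 12 fell and 6 rose (11 and 6 without the unstimulated EGTA array), and with median centring 5 fell and 13 rose. Over all genes 33.9% were called lower and 26.1% higher. The lower counts of the lysosomal and of the antioxidant list are near the share over all genes. The phosphatase Acp5 (1.46 ± 0.13) and the proton pump subunit Atp6v1h (0.66 ± 0.08) rose, and the cathepsin Ctsh (-0.57 ± 0.06), Man2b1 (-0.64 ± 0.06) and Atp6v0d1 (-0.62 ± 0.07) fell. With median centring Ctsh was at -0.20 and not called (adjusted p = 0.110). Of 33 adhesion and cytoskeleton genes 16 fell and 8 rose (13 and 8 without the unstimulated EGTA array), and with median centring 7 fell and 18 rose. The fibronectin receptor subunit Itga5 rose by 2.04 ± 0.11, and the actin regulator Coro1a (-1.31 ± 0.11), the integrin Itgb5 (-1.40 ± 0.15) and the selectin ligand Selplg (-0.72 ± 0.07) fell.

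**Figure D3:**
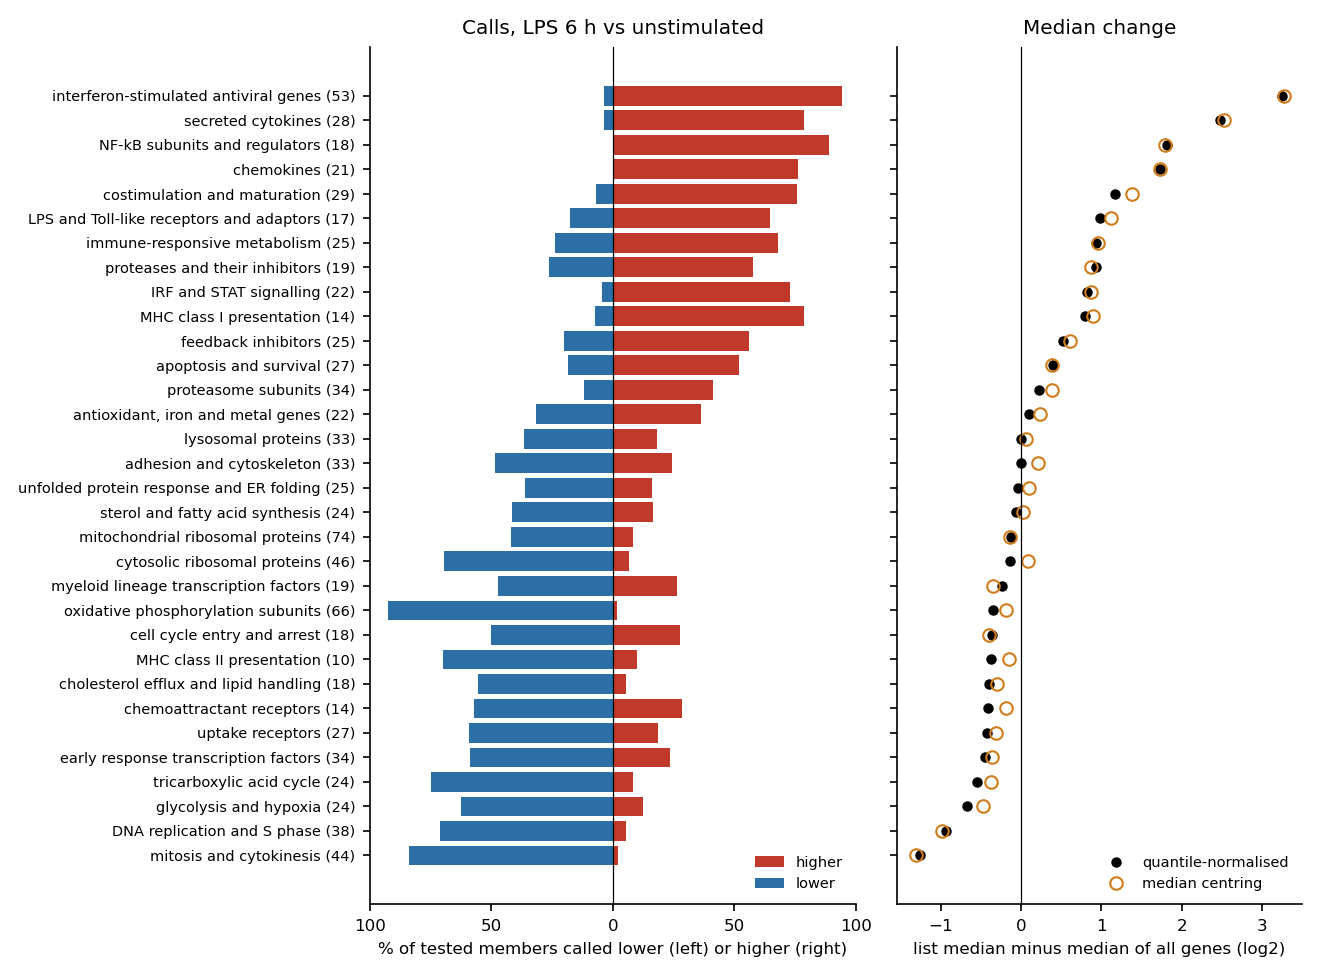
Left, percent of the tested members of each gene list (number in brackets) called lower or higher at 6 h. Right, the list's median change minus that of all genes (log2), as reported and with median centring. Antiviral genes and cytokines lie farthest to the right and mitosis genes farthest to the left, and the cytosolic ribosomal proteins cross 0 with the scaling.

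The 6 h arrays were close to those at 4 h. Against 4 h 37 of 7056 genes were called (0.524%), against 12 h 875 (12.4%), against 24 h 2889 (40.9%) and against 2 h 3284 (46.5%). The count against 4 h fell to 12 with median centring and 2 without scaling, and that against 12 h to 521 and 445. Against 24 h 1259 genes were higher at 6 h (17.8%) and 1630 lower (23.1%). Between 24 h and the unstimulated arrays, which the 6 h comparison shares, 3684 genes were called (52.2%).

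Of the 658 genes called higher by at least 2-fold at 6 h, 445 stood higher at 6 h than at 2 h and 31 lower, and 386 stood higher than at 24 h and 40 lower. Their mean level was farthest from the unstimulated one after 4 h in 245 genes and after 6 h in 207. It was so after 2 h in 54, after 12 h in 86 and after 24 h in 66. Of the 600 genes lower by at least 2-fold, 13 were lowest after 2 h, 136 after 4 h, 205 after 6 h, 124 after 12 h and 122 after 24 h. The unstimulated arrays are common to all these distances.

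The list medians showed several courses. That of the antiviral genes went from 1.12 after 2 h to 3.03 after 4 h and 3.19 after 6 h, and was 2.95 and 2.49 after 12 and 24 h. That of the cytokines was 2.10 at 2 h and 2.42 at 6 h and was down to 1.23 at 24 h, while NF-kB genes stayed between 1.47 and 1.77 from 2 to 24 h. Tricarboxylic acid cycle genes had their lowest median at 6 h (-0.61, against -0.22 at 24 h), as had glycolysis and hypoxia genes (-0.74, against -0.26), whereas the median of mitosis genes was lower at each later time, down to -2.07 at 24 h.

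**Figure D4:**
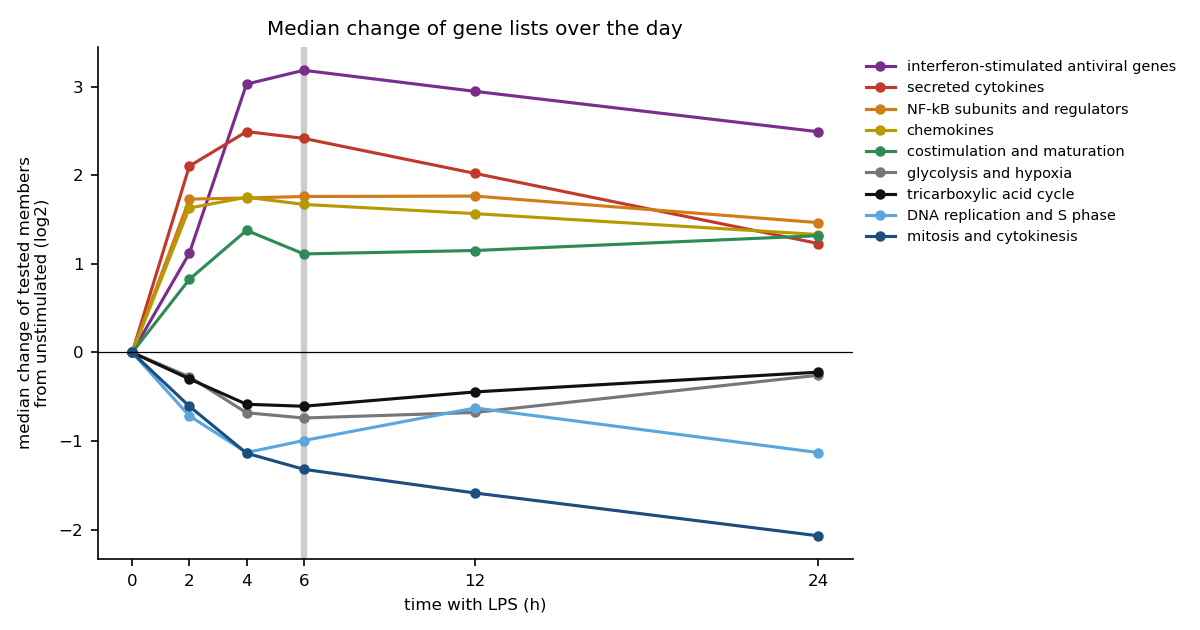
Median change from unstimulated cells (y axis, log2) of the tested members of 9 gene lists against time with LPS (x axis, hours), means of 3 conditions, with 6 h marked in grey. The antiviral list is at 1.12 at 2 h and 3.19 at 6 h, and the mitosis list goes from -1.32 at 6 h to -2.07 at 24 h.

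At 6 h 469 genes were called above both their 2 h and their 24 h level, and 593 below both. The ones that stood out most upwards included the transcription factor Pou3f1, which was at 4.95, 4.21 and 4.17 without LPS and at 8.53, 7.37 and 5.80 at 6 h (2.79 ± 0.38). It was 2.30 above its 2 h level, and its change at 24 h was 0.43 (adjusted p = 0.36). Nos2, Rilpl1 (2.66 ± 0.24), the spindle gene Gpsm2 (1.33 ± 0.18), the death ligand TRAIL, Tnfsf10 (3.38 ± 0.35) and Enpp4 (3.28 ± 0.26) belonged to the same set. All but Gpsm2 were highest in wild type and lowest in CD14-deficient cells at 6 h.

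Downwards, Hepacam2 was at 9.90, 9.73 and 10.17 without LPS and at 6.23, 7.20 and 6.12 at 6 h, and had a change of 0.24 at 24 h (adjusted p = 0.39). The membrane linker ezrin, Ezr, went from 10.29, 10.42 and 10.80 to 8.74, 8.87 and 9.09 (-1.60 ± 0.08, adjusted p = 4.49e-10), with a change of -0.01 at 24 h. Neither change at 24 h was called (adjusted p = 0.91 for Ezr). The sialyltransferase St6gal1 (-3.07 ± 0.19), the arrestin Arrb1 (-2.64 ± 0.15), Bnip3 and Egln3 were the others of this set.

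Counts of large changes were near one another in the 3 conditions. The median change was -0.10 in wild type, -0.06 with EGTA and -0.02 in CD14-deficient cells, 689, 798 and 638 genes were up by 2-fold or more within a condition, and 706, 687 and 608 were down. Across the 7056 genes, which share arrays and are no replicates, the changes of 2 conditions correlated with r between 0.852 and 0.907. The antiviral list had medians of 3.31, 3.20 and 3.05, the cytokine list 2.72, 1.83 and 2.42 and the DNA replication list -0.79, -0.80 and -1.32. With 1 array per condition and time, differences between conditions had no test.

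The called genes whose change differed most between conditions were few and varied. Cxcl1 changed by 5.67, 4.37 and 7.24, and Ccl1, a chemokine for CCR8, by 3.39, 2.29 and 5.57. In both the change was smallest with EGTA and largest without CD14. The exonuclease Isg20 changed by 5.45, 6.40 and 3.85 and the zinc finger gene Plagl1 by 3.42, 3.16 and 0.80, least in CD14-deficient cells. The IL-36 gene Il1f6 changed by 2.46, 0.31 and 3.27, Tm4sf1 by 1.15, 1.02 and 3.76, Tnfsf8, the CD30 ligand, by 2.43, 1.22 and -0.21, and the guanine nucleotide exchange factor Sos1 by 0.25, 2.79 and 0.44. The large value of Sos1 rests on the unstimulated EGTA array, where it was at 4.47 against 6.35 and 6.37, and without that array its change over conditions was 0.48 (adjusted p = 0.12) in place of 1.16 ± 0.39. The calls of Tm4sf1 and Tnfsf8 each ended without any of several single arrays, with changes of 1.36 to 1.90 and of 0.70 to 0.91.

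**Figure D5:**
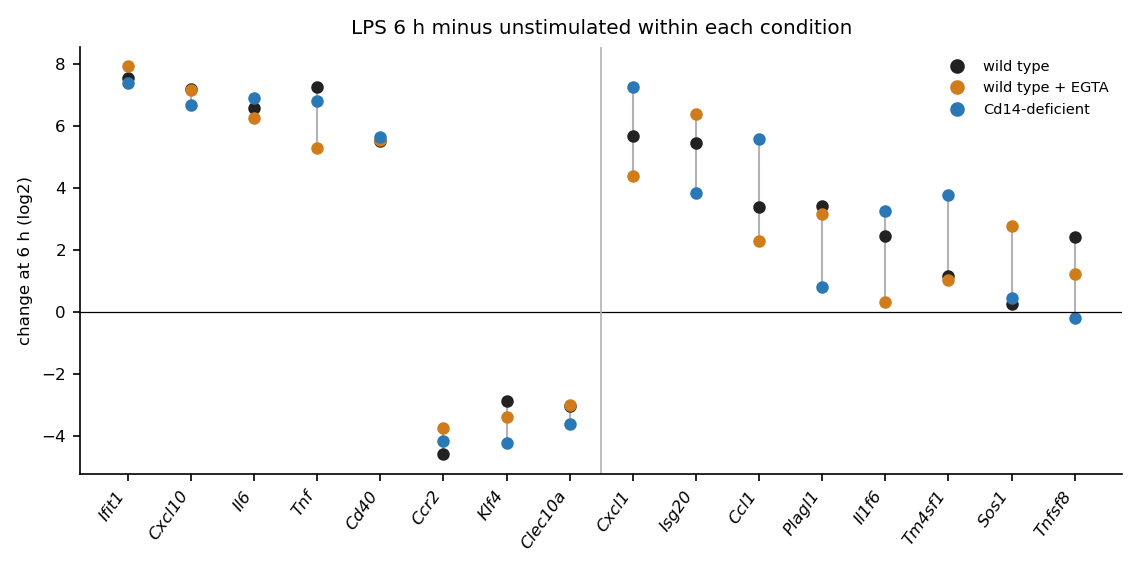
Change at 6 h (y axis, log2, LPS minus unstimulated array of the same condition) of 8 genes with large changes (left of the line) and of the 8 called genes whose changes differ most between conditions (right). Points are single pairs of arrays in 3 colours, and grey lines join the 3 conditions. Cd40 has nearly the same change in all 3, and Cxcl1 runs from 4.37 with EGTA to 7.24 in CD14-deficient cells.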

How the data were processed

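RNA of 18 samples was hybridised to 18 single-colour Affymetrix arrays, 1 per condition and time. The authors deposited 1 intensity per probe set, made with MAS5 per the submitters' processing notes, and its scaling is not given in the sources used here. From the 22690 probe sets those with 1 gene symbol were kept (20393, while 691 had several and 1606 none), 12394 genes in all. Each gene was represented by its brightest probe set. Values were taken as log2(intensity + 16), quantile-normalised and filtered to the 7056 genes above the array median on at least 2 arrays. limma 3.58.1 in R 4.3.3 fitted time and condition on all 18 arrays (lmFit, then eBayes with trend), and Benjamini-Hochberg adjustment ran over all genes tested. Condition entered as a block, since arrays of 1 condition share a mouse line and treatment and deviated together (correlations of 0.217, 0.181 and 0.485). On simulated data with 200 of 7056 genes changed, 89 of 100 with a log2 change of 1 and 99 of 100 with 2 were recovered, with 11 false calls. In the data 60.0% of the genes were called, far more than were changed there. The simulation therefore does not measure the recovery or the false calls of the reported comparison. The number of arrays limits the precision.

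Genes were named by rule: the 15 largest rises and falls of 1 sign in all conditions, the 5 members of each list with the smallest p, the 8 called genes that differed most between conditions, the 6 highest and 6 lowest at 6 h against 2 and 24 h, and a set from knowledge of the pathway. The comparison, lists and rule were chosen with earlier results of these data known. Some genes that the rule lists are not reported here.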

Additional observations from a re-analysis of the deposited data

How the results depend on the processing

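At 6 h 4233 genes were called. Without 1 of the 6 arrays 3831 to 4121 were called, 3772 to 3911 of them among the 4233, and without 1 condition 3334 to 3882 (fewest without wild type), 3274 to 3691 of them among the 4233. With no replicate block for the paired conditions 3621 were called, all of them among the 4233, and with the 6 arrays alone 3591. Scaling moved the split of directions most. With no further scaling 942 genes were higher and 3410 lower, of these 455 and 1079 by at least 2-fold, and with median centring 2243 were higher and 1587 lower. Calls against 4 h were 12 with median centring and 2 with no further scaling, and against 12 h 521 and 445. Of 241 named genes 7 changed sign under some setting. Cpa3 and Il2 were called neither as reported nor under those settings. The other 5 were Rpl13a (0.042), Rps15 (0.0025) and H2-Aa (0.23) with median centring, Gata2 (-0.43) without scaling, and Cd14, between -0.47 without wild type and 0.27 without CD14-deficient arrays. Median centring ended the call of 13 named genes, 5 of them cytosolic ribosomal proteins, and the fit with no replicate block that of 10. Of the other settings, a pseudocount of 4 or 64, no intensity trend, no filter, a stricter filter on 9 arrays, the mean of all probe sets, and the fit without 12 and 24 h arrays ended at most 2 each. The filter on 9 arrays kept 217 of the 241 named genes, so the others could not lose a call. It turned the relative medians of dendritic cell markers and of myeloid lineage factors from negative to positive (0.08 and 0.25). The cause of these shifts was not tested. Dim genes near the floor of 4 have their change understated, and depth in reads does not apply to arrays.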
